A study of Rattus norvegicus with 60 samples.

Results

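Genes of the proteasome were followed across the hippocampus, cortex and striatum of rats given a mood stabilizer or its vehicle. The set held every gene whose single annotated symbol begins with Psma, Psmb, Psmc, Psmd or Psme and a number, each read from the probe set with the highest mean level over all 60 arrays. It came to 41 of 14217 genes that have a probe set with 1 symbol: 7 of the outer alpha ring, 6 of the constitutive beta ring, 3 inducible beta subunits, 6 base ATPases, 11 other subunits of the 19S regulatory particle, 3 chaperones that assemble that particle, 3 activators, and 2 genes that carry a matching symbol without being subunits. Psmb6 and Psme3 share their probe sets with other genes and were not counted.

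The proteasome is the protease that degrades proteins tagged with ubiquitin. Its barrel holds an outer pair of alpha rings, which gate the entrance, and an inner pair of beta rings, in which Psmb5, Psmb6 and Psmb7 carry the catalytic sites. The 19S particle caps the barrel, binds the ubiquitin chain, removes it and unfolds the substrate with a ring of ATPases. Interferon induces Psmb8, Psmb9 and Psmb10, which replace the constitutive catalytic subunits to form the immunoproteasome. In neurons the complex takes part in synaptic protein turnover.

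Rats of strain SD were treated for 21 days. One arm ate chow with 0.2% lithium chloride (LiCl), a mood stabilizer, or vehicle chow (chow vehicle). The other was injected subcutaneously once a day with lamotrigine at 30 mg/kg, an anticonvulsant and mood stabilizer that blocks sodium channels, or with its vehicle (injection vehicle). Each of the 12 groups of region and treatment held 5 arrays. Injected rats gave all 3 regions, while in the chow arm the hippocampus animal numbers only partly matched those of cortex and striatum. The arms differ in vehicle, route and handling, and these cannot be told apart in a comparison of the vehicle groups. Age and sex are not given in the sources used here.

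Levels are log2 of the deposited intensities, a difference of 1 being a doubling, and an error beside a difference is its standard error (SE). The regions carried their markers: 9 genes of striatal medium spiny neurons averaged 11.47 to 12.18 in the striatal arrays and 6.94 to 7.78 in all others, and 8 hippocampal neuron genes averaged 8.08 to 8.37 in hippocampus and 6.86 to 7.62 elsewhere. Choroid plexus genes averaged more than 1 above their region's median on 10 arrays, in hippocampus (4), cortex (1) and striatum (5). Array spread, the distance between the 25th and 75th percentile of all probe sets, was 3.29 to 3.44 for cortex LiCl and 3.56 to 3.61 for cortex chow vehicle. In hippocampus it was 3.56 to 3.63 for LiCl, 3.55 to 3.64 for injection vehicle and 3.43 to 3.56 for chow vehicle.

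The promoters of 37 of the 41 genes had an entry in the RefSeq table (build GRCr8, 250 bases before to 50 after the gene's start). Those of the 3 inducible subunits are shown because interferon acts on these genes, and those of Psmd13 and Psma2 because these subunits changed in cortex. Each stretch runs from 150 bases before the start to 20 after it, 5′ to 3′ on the gene's strand. Capitals mark GAAA, any 2 bases and GAAA again, the core of the interferon-stimulated response element, and CCAAT, the box bound by nuclear factor Y, searched on both strands. No match printed here overlaps another.
Psmb8, chr20:4657012-4657181, minus strand: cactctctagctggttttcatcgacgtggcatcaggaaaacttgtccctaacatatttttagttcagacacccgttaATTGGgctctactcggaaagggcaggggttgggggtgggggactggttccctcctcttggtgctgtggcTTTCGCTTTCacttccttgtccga
Psmb9, chr20:4668850-4669019, plus strand: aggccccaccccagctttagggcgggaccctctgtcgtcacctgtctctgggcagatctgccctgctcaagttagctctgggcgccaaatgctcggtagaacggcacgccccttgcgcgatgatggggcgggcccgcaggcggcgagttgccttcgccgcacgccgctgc
Psmb10, chr19:50743273-50743442, minus strand: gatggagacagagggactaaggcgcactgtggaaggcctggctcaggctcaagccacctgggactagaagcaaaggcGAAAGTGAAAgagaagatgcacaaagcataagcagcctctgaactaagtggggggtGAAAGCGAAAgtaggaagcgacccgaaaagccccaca
Psmd13, chr1:205394098-205394267, plus strand: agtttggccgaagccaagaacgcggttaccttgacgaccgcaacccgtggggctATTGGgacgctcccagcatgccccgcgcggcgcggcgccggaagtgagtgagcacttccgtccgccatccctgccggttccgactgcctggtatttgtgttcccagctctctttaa
Psma2, chr17:55260422-55260591, minus strand: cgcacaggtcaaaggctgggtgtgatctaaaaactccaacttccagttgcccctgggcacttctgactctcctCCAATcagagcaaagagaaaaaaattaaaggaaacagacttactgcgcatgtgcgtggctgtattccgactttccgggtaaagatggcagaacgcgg

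Neither run stands in the stretch of Psmb9. Over the whole 300-base windows, the interferon-stimulated core stood in 6 of the 37 member promoters (Psma4, Psmb3, Psmb8, Psmb10, Psmd7 and Psme2) and in 3.92% of all 33469 promoters. CCAAT stood in 20 of the 37 and in 37.5% of all promoters. The antioxidant response element core TGACNNNGC, a type of site bound by Nfe2l1 and related factors, stood in 7 of the 37 (Psma3, Psmb2, Psmb5, Psmd1, Psmd3, Psmd9 and Psme4) and in 12.1% of all promoters. A match is a run of letters and not a measured binding site.

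Most members were among the brighter genes, but not the inducible Psmb9 and Psmb8, the dimmest members at mean levels of 6.005 and 6.237. The highest was 11.78 for Psmb4, and the median was 10.02. Most varied little between animals of one group. The median within-group SD of the members was 0.10, against 0.15 over all 31042 probe sets. These were not matched for level, so evenness and brightness cannot be told apart here. The most even were Psmd2 (SD 0.06), a scaffold subunit of the 19S base, Psmd11 (SD 0.06), a lid subunit, and Psma6 (SD 0.07), an alpha ring subunit. The most variable were Psmb9 (SD 0.28), Psmb8 (SD 0.23) and Psme1 (SD 0.21), the last encoding a subunit of the interferon-inducible activator.

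LiCl was first compared with chow vehicle in the cortex, where most proteasome genes were lower. Of the 41 genes, 36 had a lower mean after LiCl, 12 fell past an adjusted p of 0.05 and none rose. The median difference was -0.12, against -0.001 over all probe sets, of which 8.2% were called lower and 5.22% higher. Bright probe sets as a whole were lower on these arrays: those with mean levels between the lower and upper quartiles of the members had a median difference of -0.10. By part of the complex, the fall was called for 3 of 7 alpha ring genes (Psma1, Psma2 and Psma4), 1 of 6 constitutive beta genes (Psmb3), 2 of 6 base ATPases (Psmc1 and Psmc3) and 6 of 11 other 19S genes (Psmd3, Psmd8, Psmd11, Psmd12, Psmd13 and Psmd14), and for no inducible subunit, 19S chaperone or activator.

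**Figure D1:**
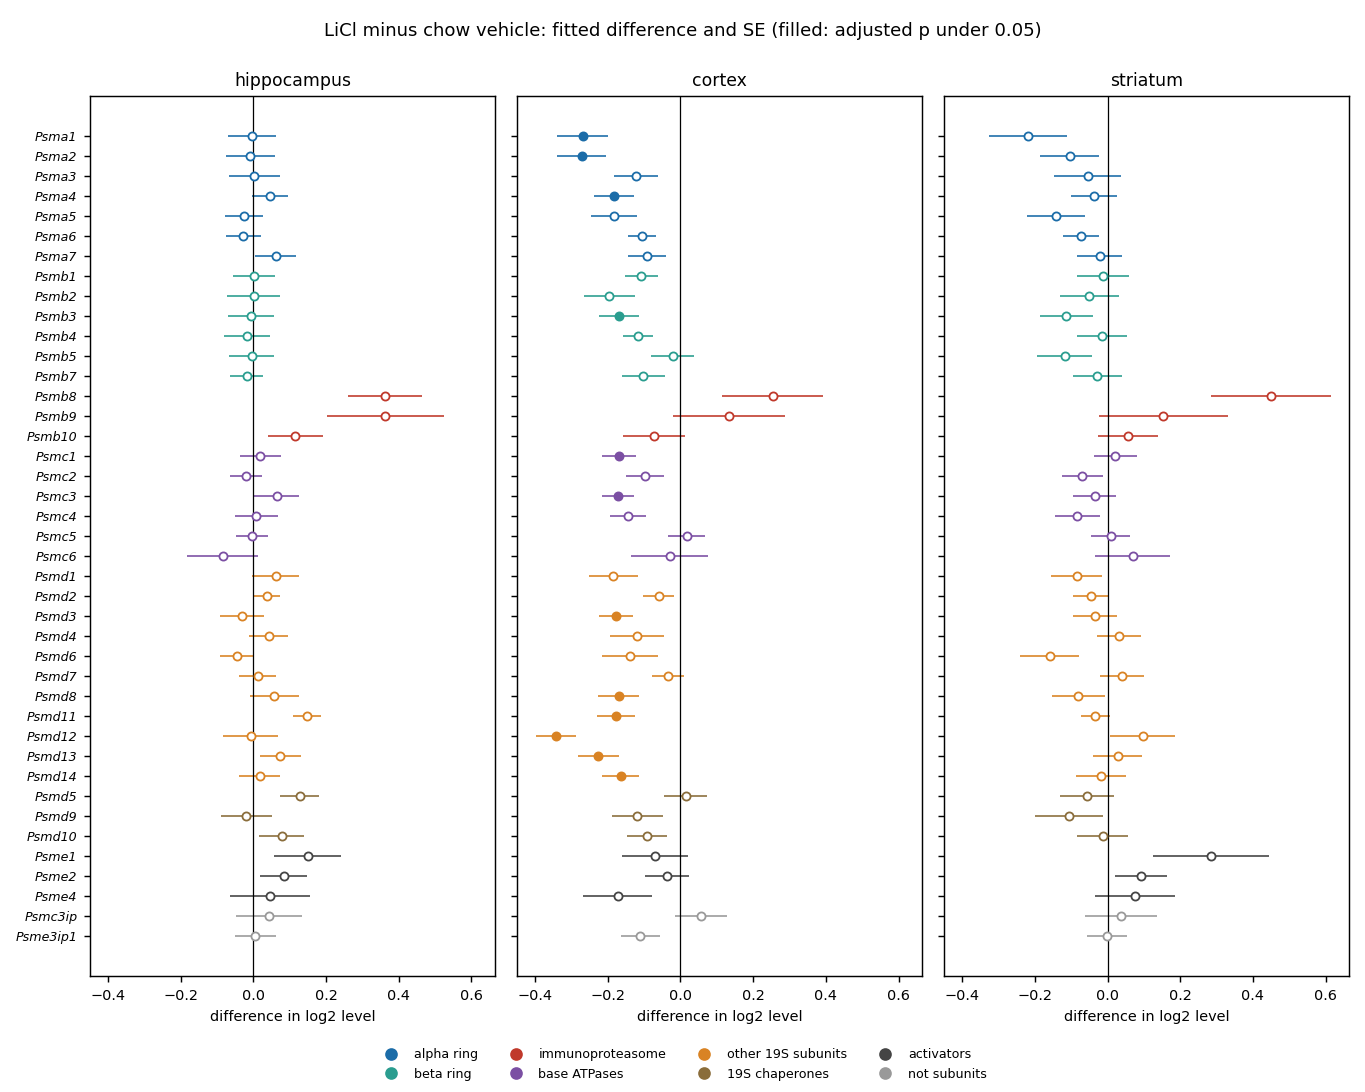
Difference in log2 level, LiCl minus chow vehicle, for each of the 41 genes in 3 regions (points, with SE as bars, 5 arrays a group), coloured by part of the complex. Filled points mark an adjusted p under 0.05. All 12 filled points lie in cortex and left of 0, while Psmb8 lies right of 0 in each region with an open point.

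Psmd12, which encodes a lid subunit of the 19S particle, fell the most. Its levels in cortex chow vehicle were 9.91, 10.01, 9.98, 9.96 and 10.02, and in cortex LiCl 9.58, 9.75, 9.72, 9.58 and 9.53. All LiCl arrays were below all chow vehicle arrays. The difference was -0.34 ± 0.06 (SE, n = 5 per group), a 1.27-fold lower level (limma adjusted p = 0.00225).

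Psma2, an alpha ring gene, had cortex chow vehicle levels of 10.45, 10.62, 10.49, 10.57 and 10.46 and cortex LiCl levels of 10.13, 10.28, 10.28, 10.30 and 10.23. Its groups did not overlap, and the difference was -0.27 ± 0.07 (limma adjusted p = 0.015). Psmd13, another lid subunit, read 8.92, 8.96, 8.94, 9.09 and 9.09 in chow vehicle and 8.74, 8.78, 8.77, 8.89 and 8.68 after LiCl. These did not overlap either, at a difference of -0.23 ± 0.06 (limma adjusted p = 0.0136). Psma1, also of the alpha ring, fell by 0.27 ± 0.07 and Psma4 by 0.18 ± 0.06, the latter with overlapping groups and no longer called in 6 of 10 fits with an array left out. The remaining 7 called genes fell by 0.16 to 0.18. In all, 9 of the 41 genes had groups that did not overlap, as had 11.8% of all probe sets.

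None of the catalytic genes passed the test in cortex. Psmb5, the chymotrypsin-like subunit, differed by -0.02 ± 0.06 and Psmb7, the trypsin-like subunit, by -0.10 ± 0.06 (limma adjusted p = 0.84 and 0.247). Averaging the 3 probe sets of Psmb5 gave 0.11 (limma adjusted p = 0.137). Psmb8 and Psmb9 had higher means after LiCl, by 0.25 ± 0.14 and 0.13 ± 0.15, and Psmb10 differed by -0.07 ± 0.08.

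The cortex result moved with the spread of the arrays. Spread was lower on all 5 LiCl arrays than on any chow vehicle array. With quantile normalization, which gives all arrays 1 distribution, the called genes went from 12 to 1, and Psmd12 remained (difference -0.25, adjusted p = 0.0156). With spread as a covariate, which split the arrays as the groups did, none was called. The differences were then -0.27 for Psmd12, -0.23 for Psma2, -0.21 for Psma1, -0.17 for Psma4 and -0.12 for Psmd13. Several marker lists also separated the groups. The 10 neuronal genes averaged 11.51 to 11.61 in cortex LiCl and 11.65 to 11.74 in chow vehicle, with 2 called lower. The 9 cortical neuron genes averaged 8.30 to 8.48 and 8.49 to 8.65, with 3 called lower. The 20 genes of interferon response and antigen presentation averaged 6.35 to 6.65 and 6.19 to 6.34, with 5 called higher, and 12 choroid plexus genes 5.78 to 6.18 and 5.51 to 5.68, with 2 called higher. The lists with lower means lay at higher levels than those with higher means. Other lists overlapped, such as the astrocyte genes at 10.71 to 10.96 in LiCl and 10.70 to 10.89 in chow vehicle. The microglial genes, at 7.96 to 8.23 and 7.88 to 8.11, overlapped too. Fewer cells of a type, less RNA per cell and the narrower array spread cannot be told apart in these bulk values. The part of these in the result was not tested. Leaving out any 1 of 6 arrays (LiCl replicates 1, 3 and 5, chow vehicle replicates 2, 3 and 4) left 5 to 7 genes called.

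**Figure D2:**
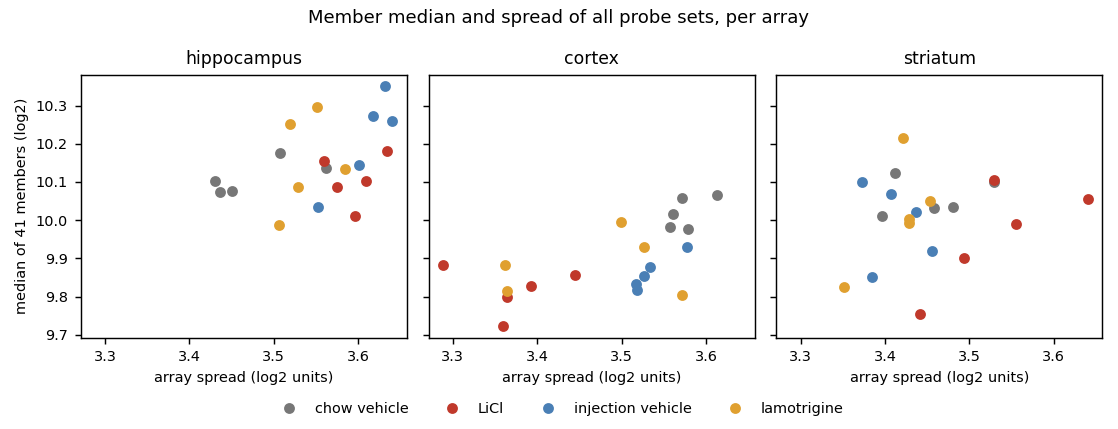
Median log2 level of the 41 genes (vertical axis) against array spread, the 25th to 75th percentile distance of all probe sets in log2 units (horizontal axis), 1 point an array. In cortex the LiCl arrays lie at spreads of 3.29 to 3.44 with medians of 9.72 to 9.88, and the chow vehicle arrays at 3.56 to 3.61 with medians of 9.98 to 10.07.

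In the hippocampus no member passed the test for LiCl. Over all probe sets 0.235% were called. A set of 4 members had an unadjusted p under 0.05 (Psmb8, Psmb9, Psmd11 and Psmd5), each with a higher mean after LiCl. Of all probe sets 15.5% had such a p in either direction. The median over the 41 was 0.01. Psmb8 read 6.44, 6.37, 6.30, 6.18 and 6.02 after LiCl and 5.78, 5.96, 5.996, 6.01 and 5.77 in chow vehicle. Every LiCl array was above every chow vehicle array, the difference being 0.36 ± 0.10 (limma adjusted p = 0.116). Psmb9 differed by 0.36 ± 0.16 (adjusted p = 0.287) and overlapped. Psmd11 differed by 0.15 ± 0.04 (adjusted p = 0.0892) without overlap, and Psmd5, a chaperone of 19S assembly, by 0.13 ± 0.05 (adjusted p = 0.266). A second Psmd11 probe set overlapped, at 10.07 to 10.15 after LiCl and 9.98 to 10.15 in chow vehicle. Averaging the Psmd11 probe sets gave 0.05 (limma adjusted p = 0.526). With array spread as a covariate Psmd5 differed by -0.009.

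In the striatum no member was called for LiCl and no probe set of any gene (0%). Psmb8 alone of the members had an unadjusted p under 0.05, as had 12.3% of all probe sets. Its levels were 6.20, 6.36, 6.93, 6.53 and 6.47 after LiCl and 5.95, 6.10, 5.60, 5.98 and 6.60 in chow vehicle. The groups overlapped through chow vehicle replicate 5, and the difference of 0.45 ± 0.16 had an adjusted p of 0.3. On that array the interferon and antigen presentation genes averaged 7.20, against 6.28 to 6.43 on the other striatum chow vehicle arrays. The part of this in the result was not tested. The next lowest p-values belonged to Psma1, at -0.22 ± 0.11, and Psmd6, a lid subunit, at -0.16 ± 0.08. The catalytic Psmb5 and Psmb7 differed by -0.12 ± 0.08 and -0.03 ± 0.07 in striatum and by -0.01 ± 0.06 and -0.02 ± 0.05 in hippocampus. With its probe sets averaged, Psmb5 differed by -0.14 in hippocampus (limma adjusted p = 0.208). Psmb10 differed by 0.12 ± 0.08 in hippocampus and 0.06 ± 0.08 in striatum, and Psmb9 by 0.15 ± 0.18 in striatum.

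Whether the LiCl effect differed between regions was tested with a single fit of all arrays. The members called numbered 5, Psmd11, Psmd12, Psmd13, Psmc3 and Psma4, where 17.2% of all probe sets were. Psmd11 gave the lowest adjusted p (0.00015), with differences of 0.15 ± 0.04 in hippocampus, -0.18 ± 0.05 in cortex and -0.03 ± 0.04 in striatum. Psmd12 differed by -0.01 ± 0.07, -0.34 ± 0.06 and 0.10 ± 0.09 in that order (adjusted p = 0.00426). Psmd13 differed by 0.07 ± 0.06, -0.23 ± 0.06 and 0.03 ± 0.07 (adjusted p = 0.00602). Psmc3, an ATPase, and Psma4 were near the threshold (adjusted p = 0.043 and 0.0458). With quantile normalization only Psmd11 was called (adjusted p = 0.0079), and with spread as a covariate none was. Averaging the Psmd11 probe sets ended its call (adjusted p = 0.198).

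**Figure D3:**
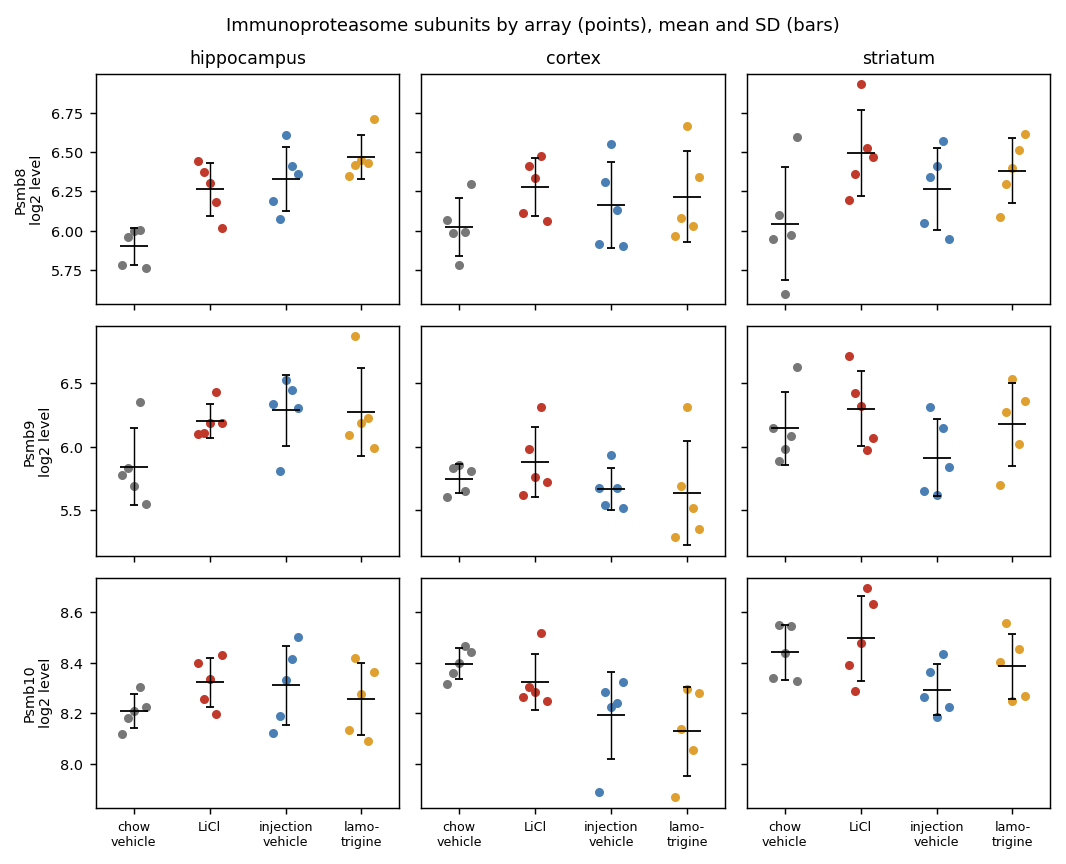
Log2 level of Psmb8, Psmb9 and Psmb10 on each array (points) with the group mean and SD (bars, n = 5), by region and treatment. In hippocampus the chow vehicle arrays of Psmb8 lie at 5.77 to 6.01, below those of the other 3 groups, which lie between 6.02 and 6.71.

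Psmb8 was also lower in hippocampus chow vehicle than in hippocampus injection vehicle, whose arrays read 6.19, 6.07, 6.61, 6.41 and 6.36. That difference was 0.43 ± 0.10 and passed the test (limma adjusted p = 0.00555). It and the LiCl comparison share the same 5 chow vehicle arrays. With the choroid-rich arrays dropped it was 0.35 (adjusted p = 0.0664), and with array spread as a covariate 0.33 (adjusted p = 0.39). The 12 microglial genes averaged 7.71 to 7.93 in hippocampus chow vehicle, 7.79 to 7.99 after LiCl and 7.63 to 8.18 in injection vehicle. The interferon and antigen presentation genes averaged 6.41 to 6.60, 6.39 to 6.53 and 6.37 to 6.66 in the same groups. The part of these cells in the result was not tested.

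Over the 60 arrays, after removing each group's mean, the genes whose levels followed Psmb8 most closely were Ctsz (r = 0.698), Golm1 (r = 0.691), Ifi30 (r = 0.687), Fcer1g (r = 0.664) and C1qa (r = 0.662). These values are a description, and many of the arrays come from the same animals. C1qa encodes a chain of complement C1q, which microglia make in brain, and Ifi30 a lysosomal thiol reductase of antigen processing.

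Lamotrigine was compared with injection vehicle in the same way, and no member passed the test in any region. In hippocampus 0.00322% of all probe sets were called, in cortex 0% and in striatum 0%. Members with an unadjusted p under 0.05 numbered 7 in hippocampus, 1 in cortex and 0 in striatum, against 9.87%, 5.8% and 3.84% of all probe sets, and the fit without an intensity trend also called none. The medians were -0.04, 0.02 and 0.03 in that order. The lowest p in hippocampus was that of Psmd12, which read 9.44, 9.46, 9.14, 9.36 and 9.47 after lamotrigine and 9.35, 9.61, 9.78, 9.69 and 9.63 in injection vehicle. These overlapped, at -0.24 ± 0.07 (limma adjusted p = 0.297). Psmc6, an ATPase, differed by -0.25 ± 0.10 and Psma3, an alpha subunit, by -0.17 ± 0.07. In cortex the lowest p-values were those of Psma3, Psmb4 and Psmd11, and in striatum those of Psmd9, Psmd7 and Psmb9, all with an adjusted p of 0.855 or above.

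The catalytic and inducible genes differed by -0.06 to 0.26 under lamotrigine, and none was called. Psmb5 differed by -0.02 ± 0.06, 0.05 ± 0.06 and 0.06 ± 0.08 in hippocampus, cortex and striatum. With its probe sets averaged the striatum value was -0.055. Psmb7 differed by -0.01 ± 0.05, 0.04 ± 0.06 and 0.02 ± 0.07. Psmb8 had a higher mean in each region (0.14 ± 0.10, 0.05 ± 0.14 and 0.12 ± 0.16), Psmb9 differed by -0.01 ± 0.16, -0.04 ± 0.15 and 0.26 ± 0.18, and Psmb10 by -0.05 ± 0.08, -0.06 ± 0.08 and 0.09 ± 0.08.

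The effects of the drugs were also set against each other. No member was called for LiCl effect minus lamotrigine effect in hippocampus (0% of all probe sets), cortex (0.0129%) or striatum (0%), with 4, 15 and 0 members at an unadjusted p under 0.05, against 14.4%, 14.5% and 8.01% of all probe sets. Neither was a member's lamotrigine effect called as different between regions (0% of all probe sets), 1 member and 5.52% of all probe sets having an unadjusted p under 0.05. In cortex the lowest p-values for the difference of effects belonged to Psmd12 (-0.32 ± 0.08, limma adjusted p = 0.108), Psmd13 (-0.26 ± 0.08, adjusted p = 0.164) and Psma2 (-0.32 ± 0.10, adjusted p = 0.166). The fall after LiCl in cortex was thus not shown to differ from the lamotrigine effect there. In hippocampus they belonged to Psmd11 (0.18 ± 0.05, adjusted p = 0.145), Psmd5 and Psmd13, and in striatum to Psmd9, Psma6 and Psmb3.

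The vehicle groups of the arms were compared as well, which bears on values set across the arms. In cortex, injection vehicle against chow vehicle gave 9 members lower and 2 higher, where 10% of all probe sets were called lower and 8.92% higher. The 9 were Psmd12, Psmd1, Psmd13, Psmd14, Psmd7, Psmd9, Psmc1, Psmc3 and Psmb4, and the 2 higher were Psmd11 and Psmd5 (0.19 ± 0.06). Psmd5 lost its call in 5 of 10 fits with an array left out. It was also not called with arrays centred on their medians (limma adjusted p = 0.0745) or with the choroid-rich arrays dropped (adjusted p = 0.0509). The median over the 41 was -0.09, against -0.01 over all probe sets and -0.06 over those as bright as the members between their quartiles. Of the 41, 7 had groups that did not overlap, as had 13.4% of all probe sets.

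Psmd12 again led, with cortex injection vehicle levels of 9.37, 9.39, 9.35, 9.34 and 9.34 against the chow vehicle levels of 9.91 to 10.02 given above. The gap between the groups was far wider than the spread within either, at -0.62 ± 0.06, a 1.53-fold lower level (limma adjusted p = 1.28e-07). It was called under all 10 other settings, at -0.66 to -0.57. In hippocampus the same comparison gave -0.20 ± 0.07 (adjusted p = 0.063) and in striatum -0.26 ± 0.09 (adjusted p = 0.0842). Mean Psmd12 levels in hippocampus, cortex and striatum were 9.61, 9.36 and 9.21 in injection vehicle and 9.38, 9.34 and 9.20 after lamotrigine.

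Psmd1, a scaffold subunit of the 19S base, read 9.07, 9.28, 9.19, 9.19 and 9.34 in cortex chow vehicle and 8.68, 8.97, 9.04, 8.92 and 8.86 in injection vehicle. Its groups did not overlap (-0.32 ± 0.07, limma adjusted p = 0.00175). Psmd13 was lower by 0.30 ± 0.06 (adjusted p = 0.000468), and both genes were called under all 10 other settings as well. Psmd14, the deubiquitinase of the lid, fell by 0.22 ± 0.05 and Psmd9, a chaperone, by 0.20 ± 0.07. Averaging its probe sets ended the call of Psmd14 (-0.11, adjusted p = 0.261), and Psmd9 was not called under 4 of 10 other settings or in 7 of 10 fits with an array left out. Because both the LiCl and the injection vehicle comparison rest on the same cortex chow vehicle arrays, their values are not independent. Psmd12, Psmd13, Psmd14, Psmc1 and Psmc3 were called lower in each.

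**Figure D4:**
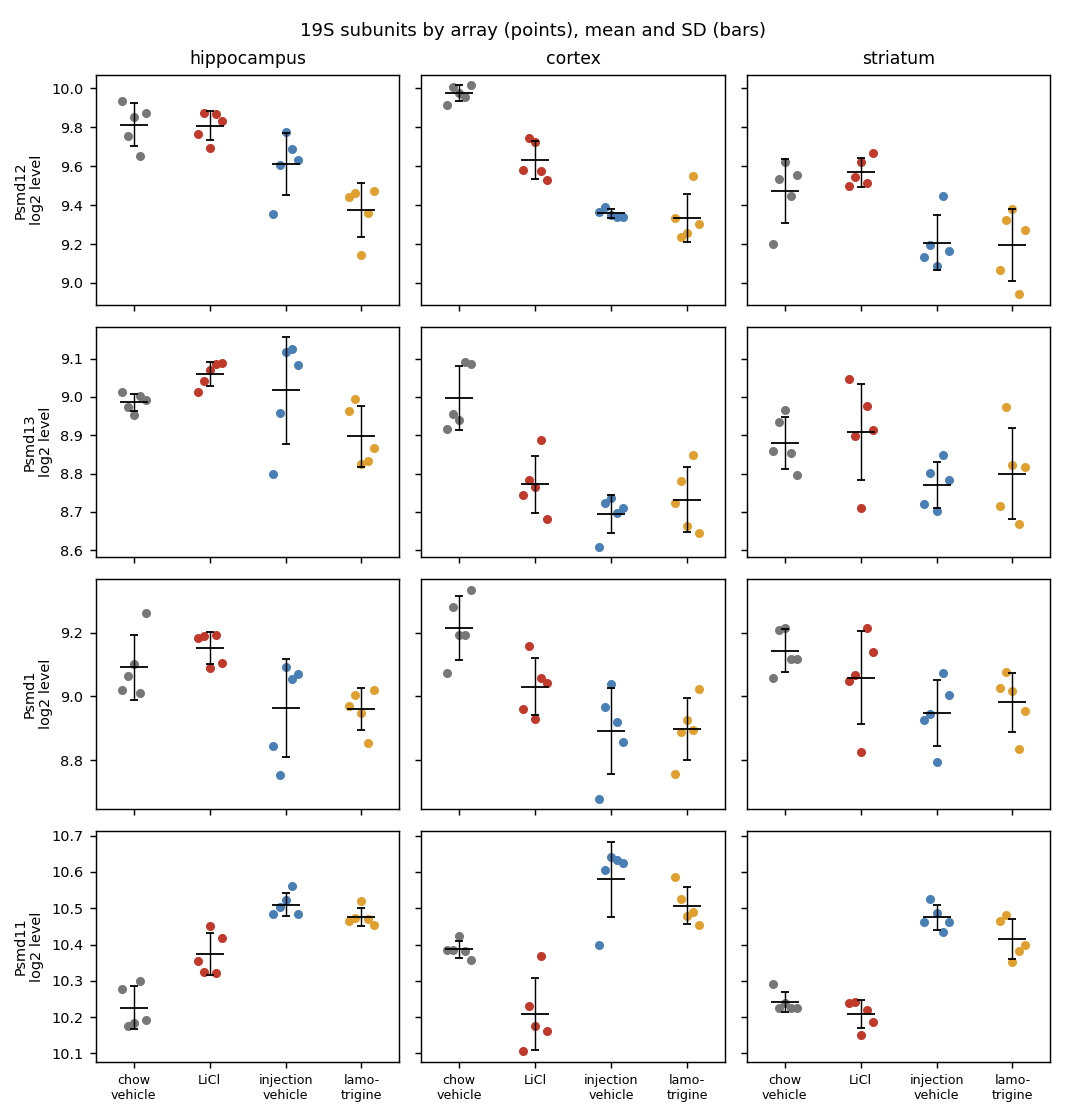
Log2 level of 4 genes of the 19S particle on each array (points) with the group mean and SD (bars, n = 5), by region and treatment. Psmd12 in cortex lies at 9.91 to 10.02 in chow vehicle and at 9.34 to 9.39 in injection vehicle, while the mean of the Psmd11 probe set shown is higher in injection vehicle than in chow vehicle in each region.

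Psmd11, whose product is a lid subunit that contacts the barrel, had the opposite sign. Injection vehicle levels were 10.48, 10.50, 10.52, 10.56 and 10.49 in hippocampus and 10.28, 10.18, 10.18, 10.30 and 10.19 in chow vehicle, without overlap. The difference was 0.28 ± 0.04 in hippocampus (limma adjusted p = 1.57e-05), 0.19 ± 0.05 in cortex (adjusted p = 0.0108) and 0.23 ± 0.04 in striatum (adjusted p = 0.000827). A second probe set of Psmd11, with a mean level of 9.95, was lower in injection vehicle in the same comparisons. It differed by -0.16 ± 0.04, -0.31 ± 0.06 and -0.22 ± 0.05 in hippocampus, cortex and striatum (adjusted p = 0.00792, 0.000583 and 0.00596). The probe sets of this gene therefore disagreed in direction in all 3 regions, each past the threshold, and the gene as a whole has no settled direction. The remaining probe set lay at 4.06 and was not called. For LiCl in cortex the named and the second probe set had the same sign (-0.18 ± 0.05 and -0.17 ± 0.06, adjusted p = 0.0286 and 0.052).

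In hippocampus the injection vehicle group had 10 members higher and none lower, where 10.9% of all probe sets were called higher and 7.6% lower. They were Psmb8, Psmd5, Psmd11, Psma2, Psmd6, Psmb1, Psmd3, Psma5, Psmc2 and Psmd2. The median over the 41 was 0.09, against -0.02 over all probe sets and 0.03 over those between the members' quartiles in level. Groups did not overlap for 6 of the 41 and for 12.6% of all probe sets. Psmd5 read 9.27, 9.27, 9.36, 9.35 and 9.43 in injection vehicle and 8.89, 9.02, 9.02, 9.09 and 9.06 in chow vehicle, without overlap, at 0.32 ± 0.05 (limma adjusted p = 0.000204). Psmd6, of the lid, was higher by 0.21 ± 0.05 and Psma2 by 0.23 ± 0.07. Quantile normalization gave 5 higher and 2 lower, and centring arrays on their medians gave 4 higher and 1 lower. The count was 1 with array spread as a covariate, 3 once the choroid-rich arrays were dropped, and 5 to 6 without injection vehicle replicate 4 or 5 or chow vehicle replicate 3. Spread nearly split these groups, so the covariate takes up much of any group difference. Dropping the choroid-rich arrays removed injection vehicle replicates 1 and 3 and chow vehicle replicate 5, which also lowers the power. Psma2 then lost its call at a difference of 0.25 (limma adjusted p = 0.0654). With spread as a covariate the member median was -0.03. Cell markers differed among these arrays. On injection vehicle replicates 3, 4 and 5 the endothelial genes averaged 6.84 to 6.96, the microglial genes 8.13 to 8.18 and the member median was 10.26 to 10.35. On replicates 1 and 2 these were 7.33 to 7.41, 7.63 to 7.76 and 10.03 to 10.14, and in chow vehicle 7.11 to 7.36, 7.71 to 7.93 and 10.08 to 10.18. Of the lists, 3 of 10 endothelial genes were called lower, and 3 of 12 microglial and 2 of 9 oligodendrocyte genes higher. Their part in the result was not tested. In striatum only Psmd11 was called, as higher, where 3.83% of all probe sets were called higher and 3% lower.

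Other genes of the ubiquitin and proteasome pathway were read from lists of assembly factors (6 genes), associated proteins (18), regulators (8) and ubiquitin enzymes (21). For LiCl in cortex 9 of the 53 were called lower and none higher, beside 8.2% and 5.22% of all probe sets. Their median was -0.10, the same as over all probe sets between the members' quartiles in level. With array spread as a covariate no probe set was called in this comparison. Those with the largest change were Akirin2, which takes part in nuclear import of the proteasome (-0.36 ± 0.11), the proteasome-bound deubiquitinase Uchl5 (-0.33 ± 0.06), Cul2, a scaffold of ubiquitin ligases (-0.31 ± 0.10), Ufd1, a cofactor of Vcp (-0.30 ± 0.06), and Fbxo2, a brain-enriched F-box protein (-0.28 ± 0.07). None of the 53 was called for LiCl in hippocampus or striatum, or for lamotrigine in any region.

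Between the vehicle groups the regulator Nfe2l1, a transcription factor that activates proteasome genes when proteasome activity falls, was lower in injection vehicle in all 3 regions. The difference was -0.79 ± 0.07 in hippocampus, -0.72 ± 0.07 in cortex and -0.69 ± 0.07 in striatum (limma adjusted p = 9.02e-08, 2.25e-07 and 4.05e-06). In cortex its levels were 10.28 to 10.42 in chow vehicle and 9.46 to 9.81 in injection vehicle. The drugs left it near its vehicle, at 10.23 to 10.37 in cortex LiCl and 9.51 to 9.87 in cortex lamotrigine. In hippocampus 7 of the 53 genes were called higher and 4 lower, near the 10.9% and 7.6% of all probe sets, led by Nfe2l1, the deubiquitinase Usp7 (-0.41 ± 0.06), the ubiquitin receptor Adrm1 (-0.36 ± 0.12), the nuclear factor Y subunit gene Nfya (0.32 ± 0.10) and the segregase Vcp (0.30 ± 0.04). In cortex 3 were higher and 10 lower, beside 8.92% and 10% of all probe sets, led by Nfe2l1, Adrm1 (-0.46 ± 0.06), Usp7 (-0.31 ± 0.09), Nfya (0.30 ± 0.10) and Uchl5 (-0.29 ± 0.06). In striatum 2 were higher (Stat3, 0.46 ± 0.10, and Vcp, 0.18 ± 0.05) and 2 lower (Nfe2l1 and Rbx1, the latter at -0.24 ± 0.07). These counts were near the shares of all probe sets there, 3.83% called higher and 3% lower.

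The regions were compared over the vehicle groups, 10 arrays a region. Hippocampus had higher levels than cortex for many members, mostly in the injection arm. Of the 41 genes, 25 were called higher and 3 lower, where 21.3% of all probe sets were called higher and 21.1% lower, and the median difference was 0.15 against 0.01 over all probe sets. The higher genes included 6 of 7 alpha ring genes, 5 of 6 constitutive beta genes, 3 of 6 ATPases, all 3 chaperones, 4 of 11 other 19S genes, 2 of 3 activators, Psmb9 and Psmc3ip. Over the 9 planned settings and each array left out in turn, 24 to 29 members were called. Within the arms the counts parted: injection vehicle arrays alone gave 28 members higher and 1 lower with a median of 0.22, and chow vehicle arrays alone 6 higher and 4 lower with a median of 0.05. All probe sets were called higher at 18.7% and 13.3% in the same order, and lower at 17.3% and 15.8%. The difference between the arms was not tested.

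**Figure D5:**
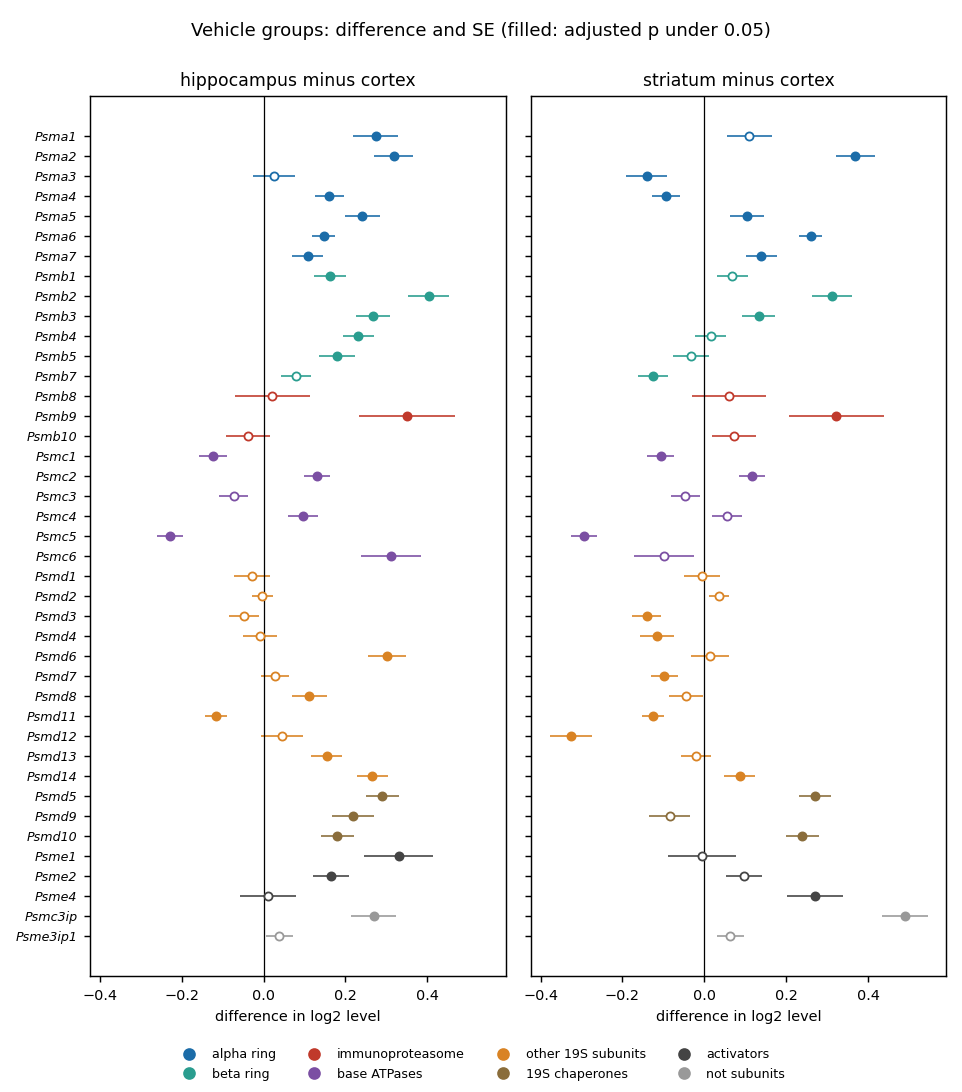
Difference in log2 level between regions in the vehicle groups (points, with SE as bars, 10 arrays a region) for each of the 41 genes, coloured by part of the complex, with filled points at an adjusted p under 0.05. Hippocampus minus cortex has 25 filled points right of 0 and 3 left of it, and striatum minus cortex 13 and 10.

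Psmb2, a beta ring gene without a catalytic site, had the largest difference. Its cortex levels ran from 10.35 to 10.71 over the 10 vehicle arrays, and its hippocampus levels from 10.76 to 11.15, with no overlap. It was higher in hippocampus by 0.40 ± 0.05 (limma adjusted p = 1.27e-09). Psmb9 (0.35 ± 0.12), the activator subunit Psme1 (0.33 ± 0.08), Psma2 (0.32 ± 0.05) and the ATPase Psmc6 (0.31 ± 0.07) followed. Within the chow arm Psmb2 (0.27 ± 0.07) and Psma2 (0.19 ± 0.07) were called, and Psmb9 (0.08 ± 0.17), Psme1 (0.16 ± 0.12) and Psmc6 (0.26 ± 0.11) were not, while all 5 were called within the injection arm, at 0.36 to 0.62. Psmb9 also missed the threshold with the 3′ to 5′ ratio as a covariate and with the choroid-rich arrays dropped (adjusted p up to 0.0513). The 3 lower genes were Psmc5 (-0.23 ± 0.03) and Psmc1 (-0.12 ± 0.03), both ATPases, and Psmd11 (-0.12 ± 0.03). Psmc5 was called in both arms, and Psmc1 and Psmd11 in the chow arm only. The second Psmd11 probe set was not called (-0.05 ± 0.03, adjusted p = 0.176). So members of the same ATPase ring differed in opposite directions between the regions.

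Striatum had 13 members higher than cortex and 10 lower, near the shares of all probe sets, 31.2% called higher and 24.7% lower. The member median was 0.036, against 0.0397 over all probe sets. Psmc3ip, a meiotic recombination cofactor that is not a subunit of the complex, was higher by 0.49 ± 0.06 (limma adjusted p = 2.84e-11), with 10 of 10 striatal arrays above the cortex mean and no overlap. The other non-subunit, Psme3ip1, was not called in any region comparison. Among subunits Psma2 (0.37 ± 0.05), Psmb9 (0.32 ± 0.12), Psmb2 (0.31 ± 0.05) and the chaperone Psmd5 (0.27 ± 0.04) were higher. Psmd12 (-0.33 ± 0.05), Psmc5 (-0.29 ± 0.03), Psma3 (-0.14 ± 0.05), Psmd3 (-0.14 ± 0.04) and Psmd11 (-0.13 ± 0.03) were lower. Psmd12 differed by -0.50 ± 0.07 within the chow arm and -0.15 ± 0.07 within the injection arm (adjusted p = 4.04e-08 and 0.089), a gap between arms that was not tested. Psma3 was not called within the injection arm or under 3 of 9 planned settings, Psmd3 not with spread as a covariate, and Psmd11 not with its probe sets averaged. The chow arm gave 9 members higher and 9 lower, and the injection arm 10 and 3. The split rested on scaling: quantile normalization gave 19 higher and 5 lower, and centring arrays on their medians 18 and 5. Psmb9 missed the threshold without striatum chow vehicle replicate 5 (adjusted p = 0.0531) and with the choroid-rich arrays dropped (adjusted p = 0.0751), and it was not called within the injection arm (0.25 ± 0.16).

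Striatum against hippocampus had 3 members higher and 20 lower, where 27.4% of all probe sets were called higher and 23.5% lower. The lower ones included 5 of 6 constitutive beta genes and 8 of 11 other 19S genes. Psmc6 (-0.41 ± 0.07), Psmd12 (-0.37 ± 0.05), Psme1 (-0.33 ± 0.08), Psmd9 (-0.30 ± 0.05) and Psmd6 (-0.29 ± 0.05) differed most. Psme4, the nuclear activator PA200 (0.26 ± 0.07), Psmc3ip (0.22 ± 0.06) and Psma6 (0.11 ± 0.03) were higher. Quantile normalization gave 5 higher and 16 lower, and array spread as a covariate 5 and 9. The chow arm alone gave 4 higher and 8 lower, and the injection arm 1 and 22. Psme1 was not called within the chow arm (-0.22 ± 0.12), nor Psme4 (0.09 ± 0.10) and Psma6 (0.06 ± 0.04) within the injection arm.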

How the data were processed

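Total RNA of microdissected rat brain regions (one label field calls the tissue mouse) was labelled and hybridised to Affymetrix arrays. The authors normalized the 60 arrays by RMA in R 2.7.2 and deposited intensities on a linear scale, from 6.93 to 28582.4, with array medians of 93.5 to 101.1. The table holds no detection call, and the number of arrays limits the precision. Here log2 was taken with no pseudocount. Control probe sets (57 of 31099) were left out and 31042 were tested. GEO's platform annotation gave 20826 of them 1 symbol, 436 several and 9780 none.

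Groups came from sample titles. The replicates carry separate animal numbers (24 in all). Each region was fitted with limma 3.58.1 (R 4.3.3; 20 arrays, 4 groups, eBayes with an intensity trend), and regions in 1 fit of 60 arrays with animal as a random block (correlation 0.133). P-values were adjusted by Benjamini-Hochberg over all probe sets, called under 0.05. Fits were tested on simulated data with independent noise. The simulation held no difference in array spread between treatments and no shared animals, so it does not bear on either.

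The named genes were Psmb5, Psmb7, Psmb8, Psmb9 and Psmb10 in each drug comparison, the 5 called members with the largest rise and the 5 with the largest fall (or the 3 lowest p-values), the extremes of within-group SD, the non-subunits, and up to 5 called pathway genes. Called members past these limits are named where a count is listed. The members, lists and rules were chosen with earlier results of these data known. Other settings were quantile normalization, centring, array spread or the 3′ to 5′ control ratio as a covariate, no trend, dim probe sets (under 5.44) left out, all probe sets of a gene averaged, arrays high in choroid plexus genes left out, a replicate block, 1 fit of all arrays, and each array left out in turn. Region comparisons within an arm were added after seeing the data.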

Additional observations from a re-analysis of the deposited data

Results flagged for a closer look

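The LiCl effect was called as different between regions for 5 members by limma's F test, where 17.2% of all probe sets were called. They were Psmd11 (adjusted p = 0.00015), Psmd12 (adjusted p = 0.00426), Psmd13 (adjusted p = 0.00602), Psmc3 (adjusted p = 0.043) and Psma4 (adjusted p = 0.0458). Averaging its probe sets ended the call of Psmd11 (adjusted p = 0.198). With array spread as a covariate no member was called. Psmc3 and Psma4 each lost the call in 15 of 30 fits with an array left out.

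For 18 members named in the drug comparisons, 1 array stood apart in 14 of 216 pairs of gene and group by Dixon's test. Chance gives about 1 in 20 for a pair, and the pairs share arrays, so they are not independent. In hippocampus these were Psma4 in LiCl replicate 5 (10.16, the others 9.96 to 10.01), Psmb9 in LiCl replicate 4 (6.43, the others 6.10 to 6.19) and lamotrigine replicate 2 (6.87, the others 5.99 to 6.23), Psmb5 in chow vehicle replicate 4 (11.80, the others 11.64 to 11.68) and Psmb8 in lamotrigine replicate 5 (6.71, the others 6.35 to 6.45). In cortex they were Psmb10 in LiCl replicate 4 (8.52, the others 8.25 to 8.31) and injection vehicle replicate 1 (7.89, the others 8.22 to 8.32), Psmc6 in LiCl replicate 2 (9.72, the others 9.39 to 9.48), Psmd9 in LiCl replicate 2 (8.09, the others 7.87 to 7.92) and Psmd11 in injection vehicle replicate 1 (10.40, the others 10.60 to 10.64). In striatum they were Psma1 in LiCl replicate 3 (9.44, the others 10.05 to 10.18), Psmb5 in injection vehicle replicate 3 (11.34, the others 11.54 to 11.57), Psmd11 in chow vehicle replicate 1 (10.29, the others 10.22 to 10.24) and Psmd9 in lamotrigine replicate 2 (8.32, the others 7.76 to 7.90).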

How the results depend on the processing

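With array spread as a covariate, LiCl in cortex kept 0 of 12 calls, injection vehicle in hippocampus 1 of 10 and the LiCl region test 0 of 5, and striatum against hippocampus had 14 calls in place of 23. The member medians under it were -0.061 for LiCl in hippocampus, -0.028 for injection vehicle in hippocampus and -0.069 for LiCl effect minus lamotrigine effect in hippocampus. Quantile normalization gave 1 call and a median of -0.049 for LiCl in cortex, a median of -0.052 for the difference of effects in cortex, and 1 call in the region test. Centring left 5 calls for injection vehicle in hippocampus and 3 in the region test. Leaving out arrays high in choroid plexus genes left 3 for injection vehicle in hippocampus. For injection vehicle in striatum, averaging a gene's probe sets gave 0 calls and 1 fit of all arrays gave 3. The region test had 3 calls without the intensity trend. With each array left out in turn, calls ranged from 5 to 14 for LiCl in cortex and injection vehicle in hippocampus, from 1 to 2 for injection vehicle in striatum, and from 3 to 6 in the region test. Averaging its probe sets turned Psmd11 in cortex, injection vehicle, from 0.19 to -0.001 (adjusted p = 0.989). Over all probe sets, LiCl in cortex had 4164 calls, 1354 with quantile normalization and 0 with the covariate. The cause was not tested. The numbers did not pair the arrays: same-numbered arrays of the groups compared correlated from -0.54 to 0.24 in 9 comparisons. A replicate block gave 16 calls for LiCl in cortex and 10 and 11 for injection vehicle in hippocampus and cortex, and the region test with no block for animal (no replicate block) gave 3. Fits within an arm were chosen after seeing the data. In the chow arm, calls were 10 in place of 28 for hippocampus against cortex (median 0.051) and 12 in place of 23 for striatum against hippocampus. In the injection arm the median of hippocampus against cortex was 0.224, and calls were 13 in place of 23 for striatum against cortex. Depth is not recorded for arrays, and no detection call bounds the dimmest members, Psmb9 and Psmb8.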
